A study of Mus musculus with 3 samples.

Results

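Of the 19339 H3K4me3 peaks called in the neural stem cell line NE4C, 1147 were 4000 bp or longer and are described here as wide H3K4me3 peaks. They were chosen by their length alone, and the other 18192 peaks of the same list, called shorter peaks, served for comparison. The study itself reports far fewer H3K4me3 peaks than this deposited list holds. The series held 3 chromatin immunoprecipitation sequencing libraries of mouse neural stem cells, for which the study names the cultured line NE4C and the labels name no treatment: one with an antibody against trimethylated lysine 4 of histone H3 (H3K4me3), one against homocysteinylated lysine 79 of histone H3 (H3K79Hcy) and one against homocysteinylated lysine in general (KHcy). Each antibody had 1 library, so no difference below has a replicate check and no test was made. Intervals are 95% Wilson intervals for shares and exact Poisson intervals for rates. They cover counting error only and take neighbouring peaks as independent, which clustered peaks are not.

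H3K4me3 is a mark laid down by the Set1 and Mll family of methyltransferases and is best known at the start sites of active genes, most of them in CpG islands. In many cell types a small set of promoters carries the mark over several kilobases, and such broad domains are known at genes that define the cell type, while in stem cells developmental regulators such as the Hox genes often carry it together with a repressive mark. Homocysteinylation is a different kind of modification: homocysteine thiolactone, a reactive product of homocysteine, reacts with the side chain of lysine. The wide peaks were therefore examined for the genes they cover, for their place in the genome and for their overlap with the H3K79Hcy and KHcy peaks.

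The list as a whole held few gene starts. Of 22380 protein-coding genes in the annotation, 1104 had their start in a shorter peak and 107 in a wide peak, and 21169 had it in none. Of 82 genes for cytosolic ribosomal proteins, which every cell expresses, 6 had their start in a shorter peak and 0 in a wide one. A gene start is here the 5′ end of the annotated protein-coding gene, and the share of all genes that had it in a wide peak was 0.478%.

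Sequences from 5 wide peaks show examples with and without a gene start, all on the mouse build mm9, with each CpG in capitals. The first 3 are the 150 bases just before the start of a gene in a wide peak, written on the strand of the gene. Hoxb5 follows from the list of Hox genes, while Nr2e1 and Lbx1 were chosen after their values were seen. They lie at chr11:96163759-96163908 (+ strand), chr10:42303439-42303588 (- strand) and chr19:45310302-45310451 (- strand), outside annotated exons.
Hoxb5: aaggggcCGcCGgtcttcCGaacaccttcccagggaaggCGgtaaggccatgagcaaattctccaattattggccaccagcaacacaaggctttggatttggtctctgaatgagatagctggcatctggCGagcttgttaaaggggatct
Nr2e1: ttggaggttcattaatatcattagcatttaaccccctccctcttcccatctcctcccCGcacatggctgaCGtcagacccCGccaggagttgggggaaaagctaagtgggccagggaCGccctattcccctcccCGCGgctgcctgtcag
Lbx1: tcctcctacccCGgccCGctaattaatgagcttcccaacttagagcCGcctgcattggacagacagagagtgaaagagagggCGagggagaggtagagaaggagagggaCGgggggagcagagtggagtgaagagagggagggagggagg
The other two are the central 150 bases of the longest wide peaks of chromosomes 5 and 15, which cover no gene start, at chr5:127923525-127923674 and chr15:87145525-87145674 (both + strand).
chr5 centre: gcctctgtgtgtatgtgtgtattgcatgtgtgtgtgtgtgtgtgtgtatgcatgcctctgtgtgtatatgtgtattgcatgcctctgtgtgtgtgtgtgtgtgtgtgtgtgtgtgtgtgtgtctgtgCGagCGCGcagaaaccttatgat
chr15 centre: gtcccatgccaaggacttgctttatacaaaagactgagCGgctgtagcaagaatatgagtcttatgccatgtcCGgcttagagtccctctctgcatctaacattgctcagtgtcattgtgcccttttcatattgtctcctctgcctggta
The Hoxb5, Nr2e1 and Lbx1 windows held 5, 6 and 5 CpG and had a GC content of 52.7%, 58.7% and 59.3%. The chromosome 5 window held a run of TG repeats followed by 3 CpG, and the chromosome 15 window held 2.

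The lengths that chose the peaks ran from 4000 to 52800 bp with a median of 5000 bp. Together the wide peaks covered 6.76 Mb and held 160994 reads, against 34.4 Mb and 626314 reads in the shorter peaks. Read density hardly set them apart. The median was 3.91 reads per 200 bp, the window on which the peaks are built, in wide peaks and 3.57 in shorter ones, and a wide peak held a median of 100 reads. Just inside the threshold, the 147 peaks of 4000 bp held 54 to 307 reads, and just outside it the 178 peaks of 3800 bp held 48 to 240. Of these, 12 of the 147 and 16 of the 178 covered a gene start. H3K79Hcy peaks overlapped 18 of the 147 (12.2%) and 13 of the 178 (7.30%), and KHcy peaks 19 (12.9%) and 17 (9.55%). With counts this small, no step at the threshold is read from them.

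**Figure D1:**
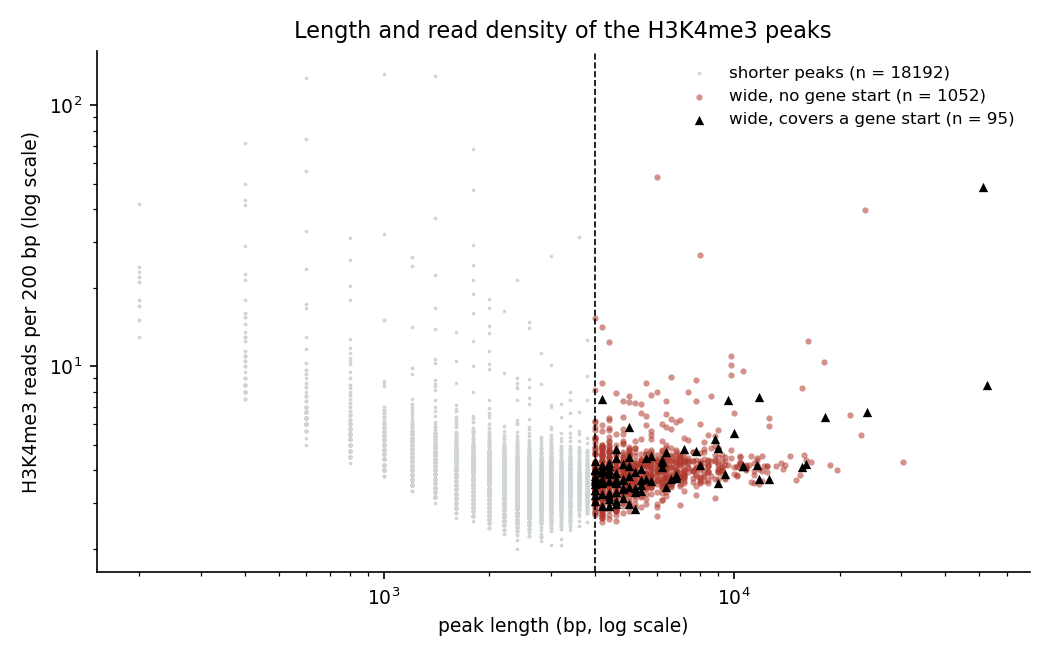
Length (x axis, bp, log scale) and H3K4me3 reads per 200 bp (y axis, log scale) of each H3K4me3 peak, 1 point a peak, with the 4000 bp threshold as a dashed line. Most wide peaks lie near 4 reads per 200 bp whatever their length, and the wide peaks that cover a gene start (triangles) lie among the others.

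Ordered by length, the longest wide peak, chr1:90108001-90160800 (52800 bp, 2243 reads), spanned the end of the Ugt1a gene array, whose members add glucuronic acid to bilirubin, hormones and drugs. It covered the starts of Ugt1a1 and Heatr7b1, and 90.9% of its bases lay in H3K79Hcy peaks and 98.5% in KHcy peaks. The next in length, chr11:3049401-3100600 (51200 bp, 12419 reads), covered the start of Sfi1, which encodes a centrosome protein, and lay 97.7% in H3K79Hcy and 100% in KHcy peaks. Its density of 48.5 reads per 200 bp was far above the median. The third in length, chr5:127908401-127938800 (30400 bp), was of another kind: it lay within the body of Tmem132c, held 4.30 reads per 200 bp and shared no base with either other list.

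The remaining 7 of the 10 longest, 18200 to 24000 bp, divided in the same way. Cd244, which encodes a receptor of natural killer cells, had its start in a peak of 24000 bp that lay 87.5% in H3K79Hcy and 86.7% in KHcy peaks. A peak of 23600 bp next to the Sfi1 peak lay 94.1% in both, one of 21400 bp on chromosome 4 lay 72.9% and 71.0% in them, and one of 18200 bp over the starts of Hjurp and Trpm8 lay 45.1% and 80.2%. Hjurp encodes a chaperone of centromeric histone H3 and Trpm8 the cold-sensing channel of sensory neurons. A peak of 23000 bp on chromosome 5 beside the Cyp3a genes lay 19.1% in H3K79Hcy peaks and 27% in KHcy peaks. By contrast, chr15:87135801-87155400 (19600 bp), 229 kb from the nearest gene start, lay in neither, and a peak of 18800 bp within Tmem132d on chromosome 5 shared 6.38% of its bases with H3K79Hcy peaks and none with KHcy peaks.

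Most wide peaks did not cover a gene start. The 95 that did made up 8.28% (6.82 to 10%), against 5.55% (5.23 to 5.89%) of shorter peaks and 5.71% of all H3K4me3 peaks. Because a longer peak takes in more bases, the same starts were also counted per length, and the order turned round: 15.8 starts per Mb (13.0 to 19.1) in wide peaks and 32.1 per Mb (30.2 to 34.0) in shorter ones. The share was also lower in wide peaks when a start was sought only in the central 1000 bp of the peak, 2.01% against 3.27%, or within 1000 bp of the peak, 12% against 15.0%. The excess of start-covering wide peaks was thus present only in the count over whole peaks.

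Of the 95 start-covering wide peaks, 83 covered 1 gene start, 12 covered 2 and none covered 3 or more. Where 1 start was covered, it lay a median of 1867 bp from the upstream edge of the wide peak and 3209 bp from the downstream edge. The peak reached farther into the gene than before it in 65.1% of these 83 (54.3 to 74.4%), beside 64.2% of 918 shorter peaks. Wide and shorter peaks were hence placed alike around the starts, within their intervals. Over gene bodies, 36.6% (33.9 to 39.4%) of wide and 42.3% (41.6 to 43.0%) of shorter peaks overlapped a protein-coding gene. The centre of a wide peak lay a median of 63.6 kb from the nearest gene start, and that of a shorter peak 32.7 kb. This gap came with the 10 bins of 1 Mb that held the most wide peaks: outside them the medians were 30.7 kb and 29.1 kb, and inside them 187 kb and 177 kb.

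The Hox genes, the clustered homeobox genes that give cells their position along the body axis, held the largest count of starts among the gene lists examined. Of 39 annotated Hox genes, 12 (30.8%, 18.6 to 46.4%) had their start in a wide peak, beside 0.478% of all protein-coding genes, and 9 more had it in a shorter peak. The 4 clusters differed. Wide peaks numbered 9 in the Hoxc cluster, 6 in the Hoxb cluster, 5 in the Hoxd cluster and 0 in the Hoxa cluster. Their summed lengths came to 47.9% of the 136 kb of Hoxc, 22.4% of the 194 kb of Hoxb and 21.7% of the 117 kb of Hoxd. Each cluster was taken with 10 kb on either side of its genes. The Hoxd sum includes the part of its first wide peak that lies beyond this margin, so the share covered there is somewhat lower. In Hoxa, 12 shorter peaks covered 19.3% of 126 kb and the starts of Hoxa5 and Hoxa9 among its 11 genes.

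Within Hoxb the longest wide peak, chr11:96154601-96170200 (15600 bp, 321 reads), covered the start of Hoxb5 and reached into Hoxb6, and held the Hoxb5 sequence printed above. Peaks of 4000 and 4400 bp covered the starts of Hoxb8 with Hoxb7 and of Hoxb4, and 3 wide peaks lay in the body of Hoxb3 without its start. In Hoxc, the starts of Hoxc12, Hoxc11, Hoxc9 and Hoxc5 lay in wide peaks of 4800, 12600, 11600 and 6400 bp. In Hoxd, those of Hoxd11, Hoxd10, Hoxd9 and Hoxd8 lay in wide peaks of 4600, 6200, 4800 and 4000 bp, and a wide peak of 5800 bp covered the start of Evx2, the homeobox gene at the end of the cluster. Read density over these 20 peaks ran from 3.42 to 4.52 reads per 200 bp, close to the median of all wide peaks.

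The homocysteine marks were present in parts of these clusters. H3K79Hcy peaks overlapped 2 of the 6 wide peaks in Hoxb, 1 of the 9 in Hoxc and 0 of the 5 in Hoxd, and KHcy peaks overlapped 4, 3 and 1 of them. In the Hoxb5 peak, 3200 of 15600 bp lay in H3K79Hcy peaks and 400 bp in a KHcy peak, while in the peak of Hoxb8 and Hoxb7 2600 of 4000 bp lay in KHcy and none in H3K79Hcy peaks. In Hoxc the most was 4200 of 5200 bp in KHcy peaks, in a wide peak over the body of Hoxc10. The Hoxa cluster held no peak of either list.

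**Figure D2:**
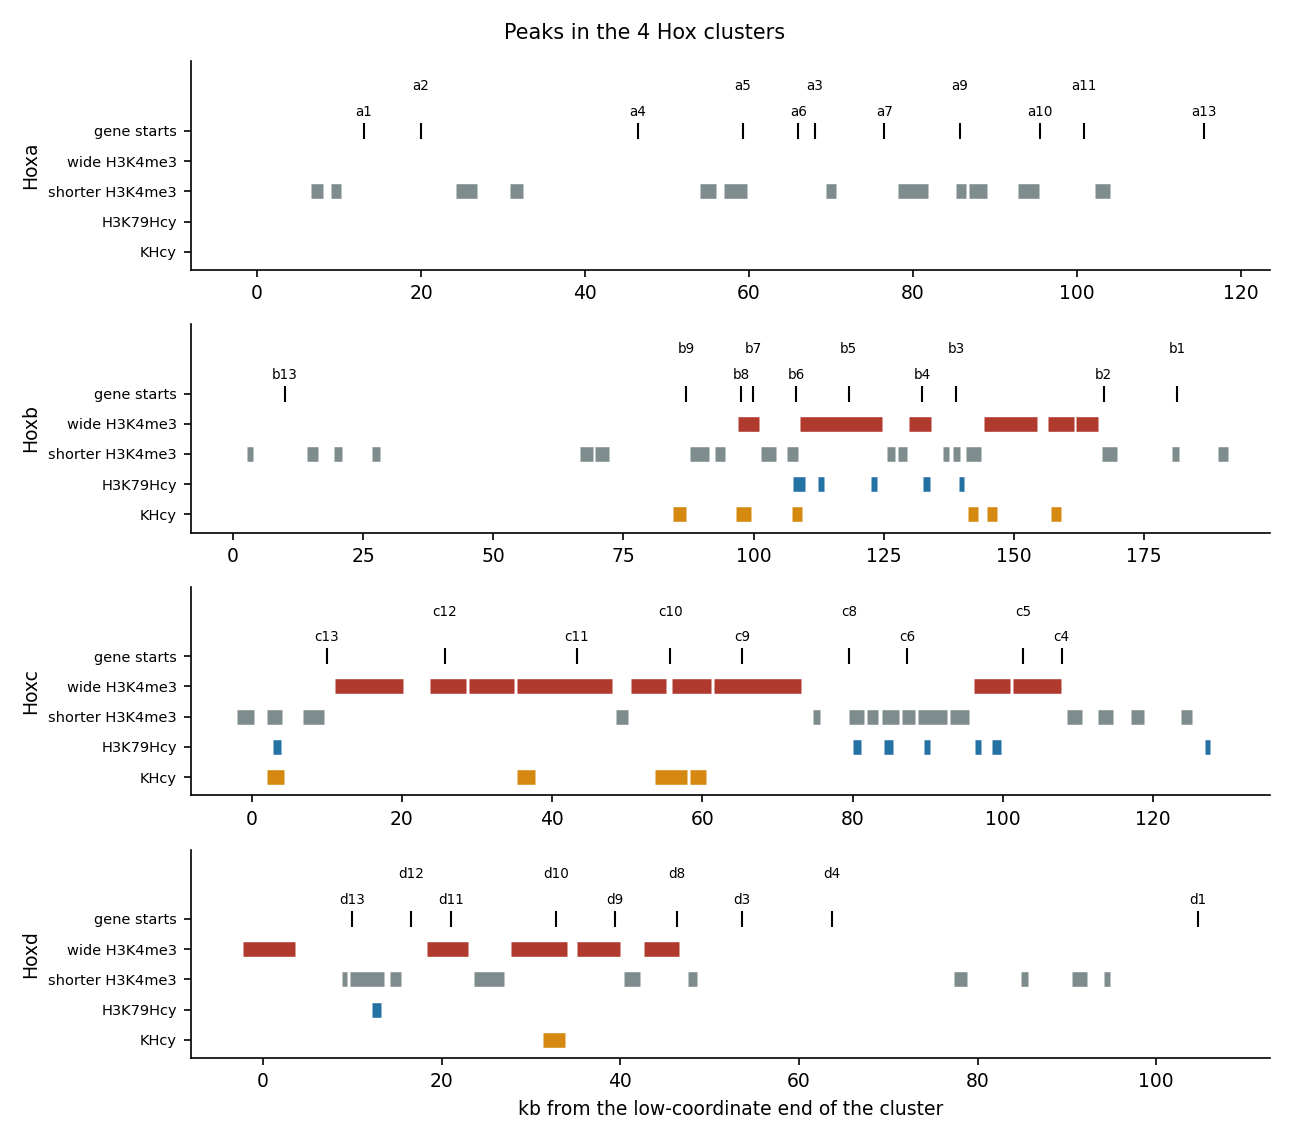
Peaks of the 3 lists in the 4 Hox clusters, as bars along the distance in kb from the low-coordinate end of each cluster with its 10 kb margin (x axis), with gene starts as ticks named without "Hox". Wide H3K4me3 peaks number 6 in Hoxb, 9 in Hoxc and 5 in Hoxd, and none lies in Hoxa.

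Beside the Hox genes, a list of 25 neural stem and forebrain progenitor genes had 2 starts in wide peaks (8.0%, 2.22 to 25.0%), beside 0.478% of all protein-coding genes. Meis1, a homeobox gene whose product binds DNA together with Hox proteins, had its start in a peak of 4600 bp with 102 reads, and Six3, a regulator of the anterior forebrain and eye, in one of 4600 bp with 76 reads. Neither peak overlapped H3K79Hcy or KHcy peaks. Starts of 3 others of that list, Sox9, Otx2 and Nes, lay in shorter peaks of 2600, 2000 and 3200 bp. No start lay in a wide peak for 11 neuronal, 10 pluripotency, 13 mesoderm and endoderm, 13 planar cell polarity, 7 Hedgehog pathway, 14 H3K4 methylation, 13 homocysteine and methionine and 67 replication-dependent histone genes, nor for 4 genes singled out by the study. At 0.478% of all genes, lists of these sizes would seldom hold a start, so nothing is read from these zeros. In shorter peaks lay among others the starts of Shh, the ligand of the Hedgehog pathway, in a peak of 3600 bp, and of Ahcy, the enzyme that releases homocysteine from adenosylhomocysteine, in one of 2600 bp.

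Many further start-covering wide peaks lay at genes for transcription factors of development. These were picked out after their values were seen and from no list, so nothing rests on their number. The longest were at Tcfap2d and at Nr2e1 with its neighbour Ostm1, 10600 bp and 219 reads each. Nr2e1 encodes Tlx, a nuclear receptor that keeps neural stem cells dividing. Others were at Foxb1 (9400 bp), Tbx3 (9000 bp), Tlx1 (8000 bp), Sp9 (6800 bp), Sp5 (6600 bp), Tcfap2b (6400 bp), Lbx1 and Lmx1b (6200 bp each), Skor1 (5200 bp), Lhx5, Lhx8 and Msx1 (5000 bp each), and, between 4000 and 4400 bp, Nkx1-1, Barx2, Ebf2, Tcf21 and Gsx1. Several of them, such as Lbx1, Lmx1b, Lhx5 and Gsx1, are known for setting the identity of neurons in the neural tube. Wide peaks also covered the starts of Wnt7b (5400 bp, 90 reads), which encodes a secreted signal, of Epha4 and Nrp2 (5200 and 5400 bp), which encode receptors for axon guidance, of Setd2 (5200 bp), the methyltransferase of lysine 36 on histone H3, and of Cdkn1b (5800 bp), a cell cycle inhibitor.

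Start-covering wide peaks also lay at chemosensory receptor genes, in a share no larger than over all genes. Chemosensory receptor genes, of which each olfactory or vomeronasal neuron is known to use one, gave 5 starts in wide peaks out of 1440, or 0.347% (0.148 to 0.810%), below the 0.478% of all genes but with an interval that holds it. Olfr385, Olfr390, Olfr394 and Olfr397 lie near one another on chromosome 11, in wide peaks of 5400, 4000, 4600 and 4800 bp, and Vmn2r15 on chromosome 5 in one of 4000 bp. These 5 peaks held 0.20 to 0.417 CpG per 100 bp, against 5.79 in the peak of Lbx1 and 7.30 in that of Nkx1-1. Of the 10 longest start-covering wide peaks, those of Hoxb5 (15600 bp), Hoxc11 (12600 bp) and Hoxc9 (11600 bp) were at Hox genes. The other 7 lay at Ugt1a1 with Heatr7b1, Sfi1, Cd244, Hjurp with Trpm8, the predicted gene Gm4868 on chromosome 5 (16000 bp), Itln1, which encodes a lectin (11800 bp), and Cyp3a11, which encodes a drug-metabolising enzyme of liver (11800 bp). Itln1 lies next to Cd244, and its peak lay 88.1% in H3K79Hcy and 100% in KHcy peaks.

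CpG density was higher on the median in wide peaks with a gene start, but the groups overlapped widely. Counted in the central 1000 bp, start-covering wide peaks had a median of 2.7 CpG per 100 bp and those without a gene start 0.8, and 45.3% and 3.33% of them held 3 or more per 100 bp. The lower quartile of the start-covering wide peaks, 0.85, lay close to the median of those without a start, and peaks such as those of Cd244 and Olfr390, with 0.658 and 0.20 CpG per 100 bp over their whole length, were among them. Among shorter peaks the medians were 4.1 and 0.9, and the shares 64.2% and 4.86%. Since most wide peaks cover no start, the median over all of them, 0.9 CpG per 100 bp, was the same as over all shorter peaks. The gene starts themselves differed less, since over the 1000 bp around the start the median was 5.50 CpG per 100 bp for the 107 starts in wide peaks, 5.80 for the 1104 in shorter peaks and 4.0 for all genes. The GC box GGGCGG, the letters bound by Sp1, was found on either strand of these windows at 69.2% of starts in wide peaks (59.9 to 77.1%), 75.1% of those in shorter peaks and 59.9% of all.

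**Figure D3:**
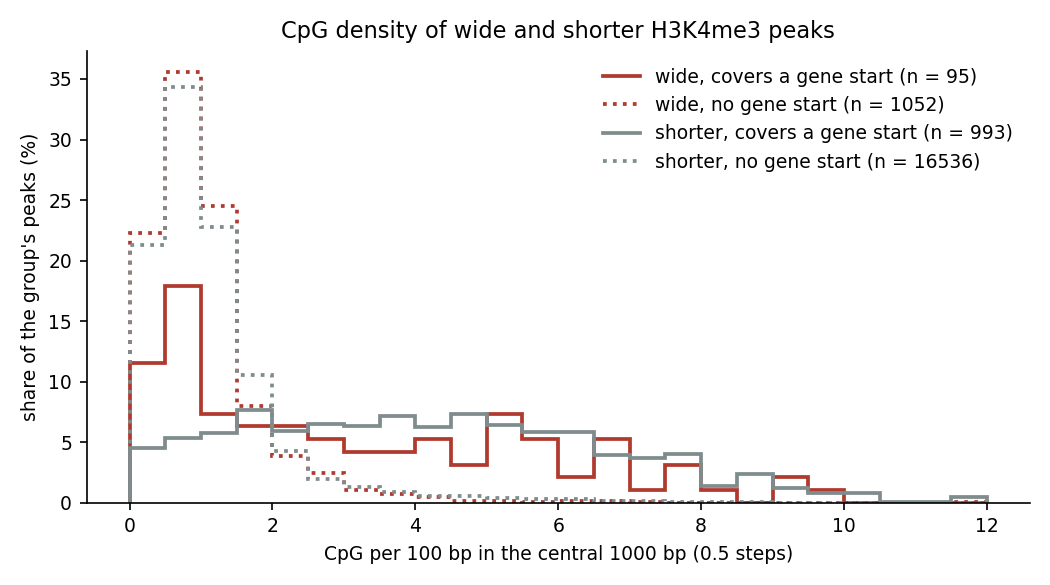
CpG per 100 bp in the central 1000 bp of H3K4me3 peaks (x axis, steps of 0.5, values over 12 in the last step) as the share of each group's peaks in percent (y axis), for peaks of 1000 bp or more. Both wide and shorter peaks without a gene start gather near 0.8 to 0.9 CpG per 100 bp, and those that cover a start reach well above it.

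Wide peaks were spread very unevenly over the chromosomes. Chromosome 5 held 470 of them, or 41.0% (38.2 to 43.8%), against 16.8% of the shorter peaks, so that 13.3% of its H3K4me3 peaks were wide. Chromosomes 6, 8 and 15 followed with 98, 97 and 93, and chromosomes 1, 11, 2 and 4 with 65, 60, 53 and 41. At the other end, chromosomes 14, 16 and 18 held 5, 3 and 1, and the X chromosome held none among its 30 H3K4me3 peaks. Gene starts did not follow these numbers. They were covered by 19 wide peaks of chromosome 5 (4.04%) and by none of the 97 on chromosome 8, but by 13 of 65 on chromosome 1, 12 of 60 on chromosome 11 and 11 of 53 on chromosome 2.

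**Figure D4:**
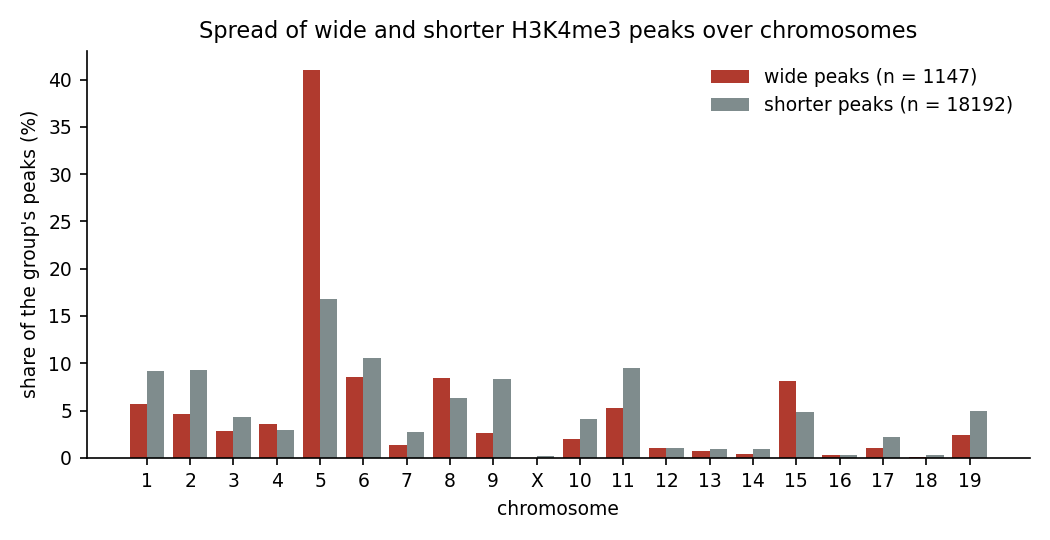
Share of all 1147 wide peaks and of all 18192 shorter peaks (y axis, percent) that lie on each chromosome (x axis). Chromosome 5 holds 41.0% of the wide and 16.8% of the shorter peaks, and chromosomes 8 and 15 also hold a larger share of the wide than of the shorter ones.

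Within chromosomes the wide peaks stood in dense stretches. Divided into bins of 1 Mb, the genome had 1662 bins with an H3K4me3 peak and 323 with a wide one, and the 10 bins with the most wide peaks held 437 of them (38.1%) but 6.41% of the shorter peaks. The fullest were 2 neighbouring bins of chromosome 5, from 126 to 128 Mb, with 69 wide peaks each among 191 and 205 peaks, which hold 3 and 1 protein-coding gene starts. The bin from 119 to 120 Mb on the same chromosome held 54, that from 86 to 87 Mb on chromosome 15 held 45, and that from 121 to 122 Mb on chromosome 8 held 33. Of the wide peaks, 50.4% had another within 10 kb, and the median distance was 9.40 kb, but 72.2 kb for those that covered a gene start.

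In these 10 bins the wide peaks differed from the rest in both genes and marks. Only 8 of the 437 covered a gene start (1.83%, 0.930 to 3.57%), against 87 of the 710 wide peaks elsewhere (12.3%, 10 to 14.9%). H3K79Hcy peaks overlapped 5.03% of them (3.35 to 7.50%) and KHcy peaks 4.58% (2.98 to 6.96%), against 22.8% (19.9 to 26.0%) and 27.3% (24.2 to 30.7%) elsewhere. The shorter peaks of the same bins showed low overlap too, 1.11% and 2.66%, beside 4.73% and 5.59% of shorter peaks elsewhere. In the bin from 127 to 128 Mb of chromosome 5 none of 69 wide peaks met a peak of either list, and the bin itself held none. The wide peaks of that bin had a median of 4.18 reads per 200 bp. Read density was also higher in shorter peaks of the 10 bins, with a median of 4.12, than in those elsewhere, with 3.53.

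Overlap with the homocysteine marks was more frequent in wide than in shorter peaks. Of the 1147 wide peaks, 184 (16.0%, 14.0 to 18.3%) shared 1 bp or more with an H3K79Hcy peak and 214 (18.7%, 16.5 to 21.0%) with a KHcy peak. Among shorter peaks the shares were 4.5% (4.21 to 4.81%) and 5.40% (5.08 to 5.74%), and among all H3K4me3 peaks 5.19% and 6.18%. Both marks were met by 131 wide peaks (11.4%), and 880 (76.7%) met neither.

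Since a longer peak meets others more easily, overlap was also counted by bases and in the central 200 bp. The base count gives longer peaks more weight, while the central window has the same size in every peak. Of the bases of wide peaks, 9.75% lay in H3K79Hcy and 12.7% in KHcy peaks, against 2.24% and 3.40% of those of shorter peaks. The central 200 bp of the peak met an H3K79Hcy peak in 8.02% of wide peaks (6.59 to 9.74%) and 2.95% of shorter ones, and a KHcy peak in 10.7% (9.06 to 12.6%) and 3.9%. The difference thus remained in both counts and was smaller in percentage points than over whole peaks. It also remained against the shorter peaks of the same 1 Mb bins. The central 200 bp of those met H3K79Hcy peaks in 3.57% and KHcy peaks in 4.47%. Over whole peaks, where length does enter, 5.60% and 6.39% of them did. Length also enters the count by chromosome, which was made over whole peaks. On each of the 12 chromosomes with 20 or more wide peaks, a larger share of wide than of shorter peaks met each mark.

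Among wide peaks the overlap over whole peaks, which length itself enters, rose with length. H3K79Hcy peaks were met by 13.2% (11 to 15.7%) of peaks from 4000 to 5800 bp, 19.3% (15.1 to 24.3%) from 6000 to 9800 bp and 34.7% (24.8 to 46.2%) of the 72 peaks of 10000 bp or more. For KHcy peaks the shares were 15.9%, 21.1% and 38.9%. The 663 H3K4me3 peaks of 800 bp or less, which held a median of 5.50 reads per 200 bp, broke the order with 16.1% and 13.4%. The longest peaks weighed much on the bases: without the 10 longest, 7.55% of wide-peak bases lay in H3K79Hcy and 10.5% in KHcy peaks.

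**Figure D5:**
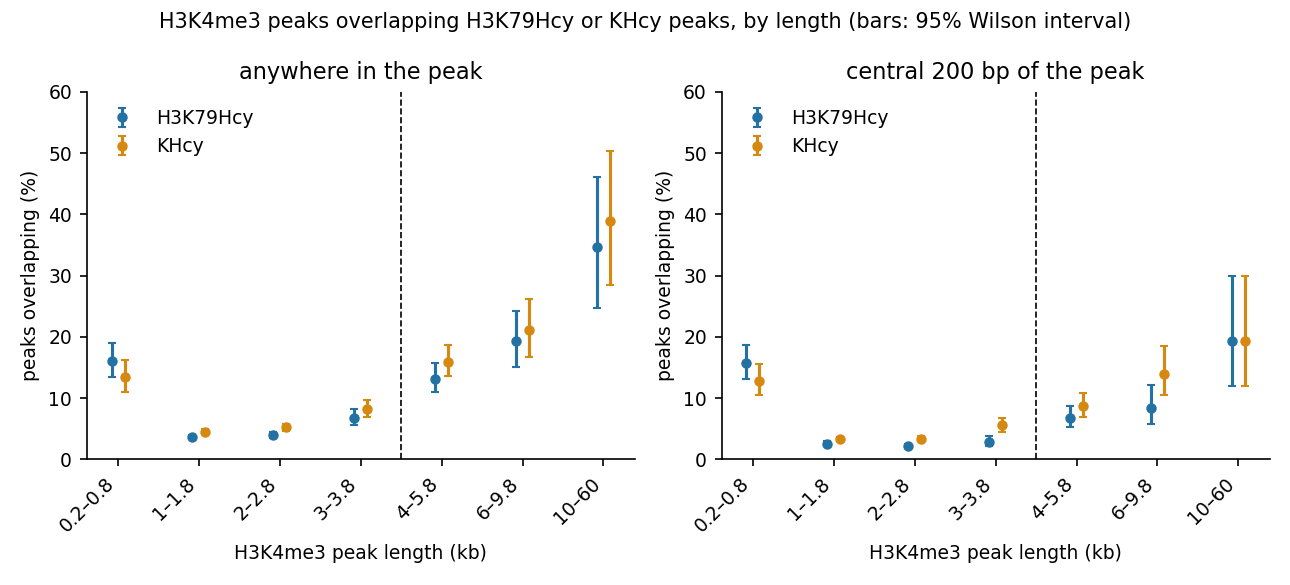
Share of H3K4me3 peaks (y axis, percent, with 95% Wilson intervals) that overlap an H3K79Hcy or a KHcy peak, by length class (x axis, kb), counted anywhere in the peak (left) and in its central 200 bp (right), with the 4000 bp threshold dashed. Above it the shares rise from 13.2% and 15.9% to 34.7% and 38.9% on the left, and are smaller on the right.

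Seen from the other lists, 311 of 7387 H3K79Hcy peaks (4.21%) and 300 of 7300 KHcy peaks (4.11%) overlapped a wide H3K4me3 peak. For the longest of them the share was much larger: 33 of 36 H3K79Hcy peaks of 4000 bp or more (91.7%) and 54 of 134 such KHcy peaks (40.3%). The peaks on both sides of this count were chosen as long, so length enters it. Read density of the overlapping peaks was also higher. H3K79Hcy peaks had a median of 5.25 reads per 200 bp in wide H3K4me3 peaks, 4.75 in shorter ones only and 4.20 outside H3K4me3 peaks, and KHcy peaks 4.09, 3.62 and 3.31.

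Repeated sequence moved with this overlap, and its part in it was not tested. For each peak the share of its 31-base words that occur more than once in the genome was counted, with a median of 3.96% in wide and 2.43% in shorter peaks. Copies that the assembled genome lacks do not enter this count. In 161 wide peaks (14.0%) it was 20% or more, and of these 52.2% (44.5 to 59.7%) met an H3K79Hcy and 50.9% (43.3 to 58.5%) a KHcy peak. Of the 986 other wide peaks, 10.1% (8.41 to 12.2%) and 13.4% (11.4 to 15.7%) did, against 3.27% and 4.48% of shorter peaks with as little repeated sequence. Among the 131 wide peaks that met both marks, 56.5% had 20% or more of repeated words, and among the 880 that met neither 7.84%.

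The wide peaks with the most reads lay largely in peaks of both other lists, and input signal at them was not measured. Those with the 5 highest densities held 15.3 to 52.9 reads per 200 bp, lay 90.0% or more in H3K79Hcy peaks and 94.1% or more in KHcy peaks, and had 12.8 to 32.1% of repeated words. The densest, chr17:39979801-39985800 (6000 bp, 1588 reads), had a GC content of 64% and 9.95 CpG per 100 bp, lay wholly in both other lists and covered no protein-coding gene start. The peaks at Sfi1 and beside it on chromosome 11 followed with 48.5 and 39.7 reads per 200 bp. The fourth, chr8:125950001-125958000 (8000 bp, 1069 reads), lay 95% in both. Some shorter H3K4me3 peaks were denser still, with up to 131 reads per 200 bp.

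Of the 10 wide peaks with the largest share of bases in H3K79Hcy peaks, 2 lay wholly within them, the chromosome 17 peak and chr10:57671201-57679400 (8200 bp, 210 reads). The latter differed in having 3.13% of repeated words and 5.12 reads per 200 bp, and its nearest gene start was that of Dux, which encodes a double homeobox factor of the early embryo. The remaining 8 lay 92.9% or more in H3K79Hcy peaks, 2 of them at Sfi1 and 1 each on chromosomes 1, 4, 5 and 6 and 2 on chromosome 8. A single one of the 10 beside Sfi1 covered a gene start, that of Gm9765 beside Itln1 and Cd244. Chromosome 4 stood out in number: 35 of its 41 wide peaks (85.4%) met an H3K79Hcy and 33 (80.5%) a KHcy peak, and all 15 wide peaks of its bin from 146 to 147 Mb met both, with a median of 36.0% of repeated words.

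Among start-covering wide peaks, 20% (13.2 to 29.1%) met an H3K79Hcy and 30.5% (22.2 to 40.4%) a KHcy peak, against 4.16% (3.09 to 5.57%) and 7.43% (5.97 to 9.21%) of start-covering shorter peaks. These counts are over whole peaks, so the greater length of the wide peaks enters them. The share of repeated words moved with this overlap too, and its part was not tested. Its median was 4.92% in the 19 that met an H3K79Hcy peak, 5 of which had 20% or more, and 1.09% in the 64 that met neither mark, 2 of which had. Examples with both marks were the peaks of Nr2e1 with Ostm1, of which 26.4% of the bases lay in H3K79Hcy and 24.5% in KHcy peaks, of Tlx1 with 17.5% and 25.0%, and of Skor1, a corepressor of the nervous system, with 26.9% and 42.3%. The peaks of Msx1, Arl4c, Bag2 and Cdkn1b lay 56.0%, 60.9%, 72.7% and 72.4% in KHcy peaks, with 10.3% in H3K79Hcy peaks for Cdkn1b and none for the others. The peaks of Lbx1, Tbx3, Sp5, Sp9 and Wnt7b shared no base with either list. These genes too were picked out after their values were seen.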

How the data were processed

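Chromatin immunoprecipitation sequencing of NE4C cells gave 1 library for each of 3 antibodies, each a replicate of its own. The authors aligned reads to mm9 with Bowtie 2, and the submitters' processing notes name MACS 1.4.2 as peak caller. A figure legend of the study names SICER instead. The deposited peaks start and end in 200 bp steps, and which caller made them was not examined further. The input libraries were not analysed here, so input signal at wide peaks was not measured. Each deposited list gives a position, a length, a read count per peak and a score, and the authors pooled nothing. The deposited counts were not normalized, and the deposited score served only for a stricter list. Total reads per library were not given in the lists, so densities were compared only within a library.

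Peaks of 4000 bp or more in the H3K4me3 list were taken, and starts were set 1-based. The members, gene lists and comparisons were chosen with earlier results of these data known. Genes came from GENCODE M1 on the same build (mm9, NCBIM37). Overlap meant 1 bp or more. CpG, GC content and 31-base words on both strands were counted from that genome. Peaks named in the text are the 10 longest, the 10 longest that cover a gene start, the 5 with the most reads per 200 bp, the 10 with the largest share of bases in H3K79Hcy peaks, and those at starts of listed genes. Others are said to be chosen later. Python 3.11.15, NumPy 2.4.6, pandas 2.3.3, SciPy 1.17.1, numba 0.67.0 and pysam 0.24.0 were used, and overlap counting was tested on simulated data. Confidence intervals (95%) cover counting error only.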

Additional observations from a re-analysis of the deposited data

How the results depend on the processing

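Of 86 values recomputed under other settings, 41 stayed within the 95% interval of the value reported above and 45 did not, and in 81 the order of wide against shorter peaks was the same. For base shares, which have no interval above, a Wilson interval was taken as if they were shares of peaks. It is not their counting error and serves only as a yardstick. For CpG medians the interval came from ranked values. The CpG medians of wide and shorter peaks were equal above, so for CpG an order that stayed the same is a tie. This holds for 6 of the 81 values, and a CpG exception is a tie that became a difference. The cause of a move was not tested unless the setting itself gives it. The exceptions in order were the share covering a gene start, with a start sought within 1000 bp (12% against 15.0%) or in the central 1000 bp (2.01% against 3.27%), and CpG density from 6000 bp, without chromosome 5 and over whole peaks, where medians of 0.80, 0.80 and 0.929 per 100 bp stood beside 0.90, 0.90 and 0.944 in shorter peaks.

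Taking peaks of 3000 bp or more as wide gave 21.4 gene starts per Mb, H3K79Hcy overlap of 10.7% of peaks and 6.73% of bases, KHcy overlap of 12.6% and 9.19%, and 31.3% of wide peaks on chromosome 5. From 6000 bp these were 10.6 per Mb, 22.4%, 14.8%, 24.6%, 18.0% and 50.4%. Lists with a stricter score gave overlaps of 11.6% with H3K79Hcy and 14.2% with KHcy. Without chromosome 5, 11.2% of wide peaks covered a gene start, at 22.7 per Mb, H3K79Hcy overlap was 21.1% of peaks and 14.6% of bases, KHcy overlap 24.5% and 19.1%, 40.2% overlapped a gene body, and chromosome 6 held the most, 14.5%. Without peaks over 3 times the median density, 8.10% of bases lay in H3K79Hcy peaks. All gene types gave 11.8% covering a start, 25.1 per Mb and 42.2% in a gene body, and all transcript starts 11% and 40.5 per Mb. The central 200 bp met H3K79Hcy in 8.02% and KHcy in 10.7%.

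The last 3 settings were chosen after seeing the data. Without peaks of 20% or more repeated words, H3K79Hcy overlap was 10.1% of peaks and 6.01% of bases and KHcy overlap 13.4% and 8.36%. Without the 10 longest, the base shares were 7.55% and 10.5%. With peaks within 600 bp joined first, 11.9% covered a start, at 19.1 per Mb, the base shares were 6.86% and 9.01%, 41.8% overlapped a gene body and 30.4% lay on chromosome 5. No paired analysis was possible because each antibody had 1 library and no test was made, and no library could be left out for the same reason. The read counts in the lists, 53 or more in each wide peak, limit what can be said of single peaks.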

Other observations

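The 12 wide peaks that covered 2 gene starts included pairs not yet described, of which 4 were picked out after their values were seen. These were St7l with Capza1, an actin-capping subunit, in a peak of 5000 bp, Srsf11, a splicing factor, with Lrrc40 in one of 4200 bp, Exosc1, an exosome subunit, with Zdhhc16 in one of 4000 bp, and Atg13, an autophagy factor, with Harbi1 in one of 4000 bp. These 4 peaks held 3.35 to 3.65 reads per 200 bp, and none overlapped H3K79Hcy or KHcy peaks. Of the 1052 wide peaks without a protein-coding gene start, 40 (3.80%, 2.80 to 5.14%) covered the start of a gene of another type, beside 1.59% of shorter peaks without one. Exons of protein-coding genes were overlapped by 18.9% (16.8 to 21.3%) of wide and 19.2% (18.7 to 19.8%) of shorter peaks.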
